A study of Mus musculus with 2 samples.

Results

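Metalloproteinases and their inhibitors were examined in brain mononuclear cells of wild-type (WT) mice and of CD47 knockout (CD47 KO) mice. The genes were *Mmp2*, *Mmp8*, *Mmp9*, *Mmp12* and *Mmp14* for matrix metalloproteinases, *Timp1*, *Timp2* and *Timp3* for tissue inhibitors, and *Adam10* and *Adam17* for membrane-bound sheddases. Every probe set to which the platform annotation gives exactly 1 symbol, and that symbol one of these names, was taken. This gave 27 probe sets for the 10 genes, out of 34945 such probe sets for 18193 genes on the array. One sample was a pool of RNA from 7 WT mice, 10 to 15 wks old, and the other a pool from 6 CD47-null mice, 12 to 16 wks old. No other allele, transgene or treatment is given for either group, and the labels call the animals male. The cells came from enzyme-digested whole brain and were taken at the 70%/37% interface of a Percoll gradient. Each pool was amplified from 20 ng of RNA and hybridised to 1 Affymetrix Mouse Genome 430 2.0 array, so every difference below is between 2 pools, without replicate, test or error between animals.

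Matrix metalloproteinases are zinc-dependent enzymes, made as inactive precursors, that cut collagens, elastin and other proteins outside the cell. TIMPs block the active site of these enzymes, and *Timp3* also inhibits some ADAM proteases. *Adam10* and *Adam17* encode sheddases, which cut the outer part of membrane proteins such as APP, Notch receptors and TNF from the cell surface, and in the brain such enzymes act in myelin and vessel remodelling, inflammation and the release of microglial surface proteins.

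The labels were checked first. *Cd47*, the gene knocked out, had 5 probe sets, with Log2 ratios (KO/WT) from -1.86 to -1.45. The signal of the brightest was 5816 in WT and 1688 in CD47 KO. Of 12 microglial marker genes, 11 have a named probe set and all 11 were above the median of at least 1 array, with a summed signal of 83865 in WT and 96991 in CD47 KO. Markers of neutrophils, choroid plexus, neurons, astrocytes and vessel cells also had bright members in both pools. Against the male label, *Xist*, a transcript of the inactive X chromosome, had signals of 7070 and 6530 (-0.11) on its brightest probe set. Its other probe sets were higher in CD47 KO, at 3540 and 4405 (0.32) and at 925 and 1327 (0.52). The Y-linked gene *Eif2s3y* had signals of 189 and 461 on its brighter probe set and 165 and 146 on the other. *Kdm5d*, also Y-linked, had 162 and 307 on its expressed probe set. Its probe sets below the medians had 48.7 and 104 on one and 115 and 32.9 on the other. Every probe set of Y-linked *Uty* lay below both medians and was higher in CD47 KO. Whether the pools differed in their share of male RNA was not tested.

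*Mmp12* and *Mmp8* are members of 1 gene cluster whose Log2 ratios had opposite signs, and their upstream sequences are shown for that reason. They are the 250 bases before the start of the gene in RefSeq (GRCm38.p6), both on the plus strand. *Mmp12* has 2 annotated starts, at the ends of chr9:7344147-7344396 and chr9:7347124-7347373, and the window of *Mmp8* is chr9:7558179-7558428. Capitals mark a match to ACTTCCTC, the reverse of the PU.1-type letters GAGGAAGT, or to the AP-1 letters TGANTCA.
Mmp12 upstream of the first start: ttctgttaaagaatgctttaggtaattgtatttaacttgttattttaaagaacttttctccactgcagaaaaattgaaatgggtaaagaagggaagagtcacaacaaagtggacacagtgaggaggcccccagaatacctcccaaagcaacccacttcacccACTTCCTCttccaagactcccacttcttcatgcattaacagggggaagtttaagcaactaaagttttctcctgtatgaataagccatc
Mmp12 upstream of the second start: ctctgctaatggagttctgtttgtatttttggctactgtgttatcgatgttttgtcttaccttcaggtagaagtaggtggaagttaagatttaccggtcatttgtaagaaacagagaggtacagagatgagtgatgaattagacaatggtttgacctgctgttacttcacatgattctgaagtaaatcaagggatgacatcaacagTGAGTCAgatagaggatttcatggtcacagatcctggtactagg
Mmp8: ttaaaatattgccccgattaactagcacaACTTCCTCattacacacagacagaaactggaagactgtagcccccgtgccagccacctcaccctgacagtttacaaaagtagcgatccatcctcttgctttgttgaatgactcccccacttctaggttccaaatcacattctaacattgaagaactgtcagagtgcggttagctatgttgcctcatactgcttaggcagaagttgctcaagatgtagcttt
The motifs were chosen with the sequences in view, and both strands were searched. The PU.1-type letters stand 88 bases before the first *Mmp12* start and 221 before that of *Mmp8*, and are in 2.44% of 32851 promoter windows of this length. The AP-1 letters stand 44 bases before the second *Mmp12* start and are in 6.75% of all windows. The letters TATAAA, found in 12.4% of all windows, were in none of the 9 windows that the table holds for 8 of the genes, all but *Mmp2* and *Mmp9*. PU.1 and AP-1 are transcription factors of myeloid and of stimulated cells, and a match of letters shows neither binding nor use of a start.

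Values were MAS5 signals, which give the brightness of a probe set on a linear scale. A probe set was called expressed if it was at or above the array median (161 for WT, 146 for CD47 KO) in 1 or both pools, and a gene took the value of its expressed probe set with the highest mean signal. Of the 27 member probe sets, 23 were expressed and 21 of them on both arrays. They read 9 of the 10 genes, all but *Timp1*. A signal depends on the probes as well as on the RNA, so the order of signals between probe sets is not an order of RNA levels, and "brightest" below refers to the signal alone. In a bulk sample, fewer cells of a type and less RNA per cell cannot be told apart.

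More than 2-fold higher in CD47 KO was 1 of the 23 expressed member probe sets (4.35%), that of *Mmp12*, against 3.95% of all 21167 expressed named probe sets. None was more than 2-fold lower, against 5.49% of all. By gene, 1 of 9 was past 2-fold higher and 0 lower, where the background was 3.56% and 5.46% of 11695 genes. Over the 9 genes the Log2 ratio had a median of -0.02, and over all expressed genes 0.00. Their probe sets split into 11 higher and 12 lower. The counts did not set these genes apart from the array as a whole, and what follows is a description of single genes. By role, the 5 metalloproteinases had a median of -0.43. Of these, *Mmp2* (-0.02) turned to 0.08 with quantile and 0.06 with loess normalization, and *Mmp14* had probe sets of opposite sign. The expressed inhibitors had 1 gene higher and 1 lower. The sheddases had 0.42 (*Adam17*) and 0.00 (*Adam10*, -0.06 with quantile normalization) on their brightest probe sets.

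**Figure D1:**
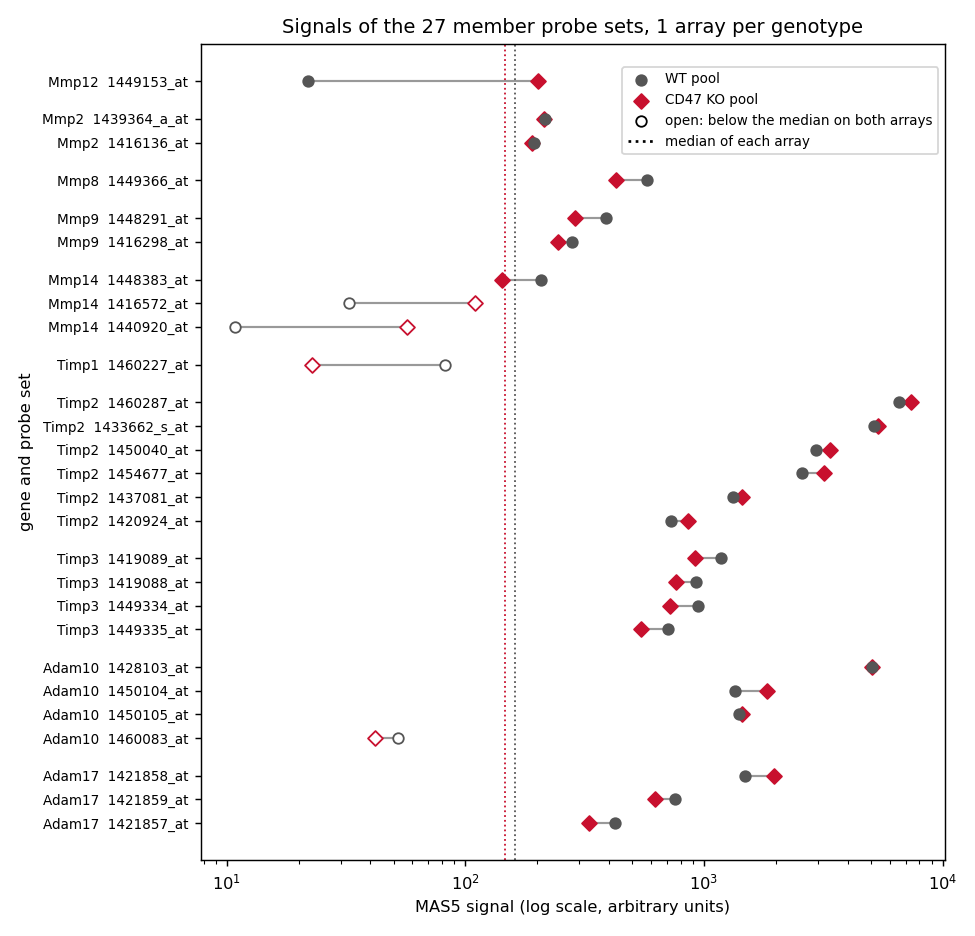
MAS5 signal (log scale) of the 27 member probe sets on the WT array (grey circles) and the CD47 KO array (red diamonds), grouped by gene, with open symbols for probe sets below the median of both arrays and dotted lines at the medians of 161 and 146. The pair of *Mmp12* is the widest among filled symbols (22.0 and 202), while the pairs of *Timp2* and *Timp3* lie close together.

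As no replicate shows the error, each Log2 ratio was set beside the SD of the Log2 ratio over the 1000 named probe sets nearest to it in brightness. That scatter holds both measurement error and true differences between the pools. Over all expressed probe sets in 4 equal groups by brightness, the SD was 1.01 in the dimmest and 0.30 in the brightest group. Past 2-fold in either direction were 25.6% of the dimmest group and 0.699% of the brightest. The brightest probe sets of *Timp2* and *Adam10* were far above the medians, and those of *Mmp2*, *Mmp12* and *Mmp14* near or below them. A Log2 ratio of 1 size thus stands beside a wider scatter in these metalloproteinases. The brightest probe sets of *Mmp8* and *Mmp9* lay above both medians, and the SDs over their nearest probe sets were 0.48 and 0.62.

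**Figure D2:**
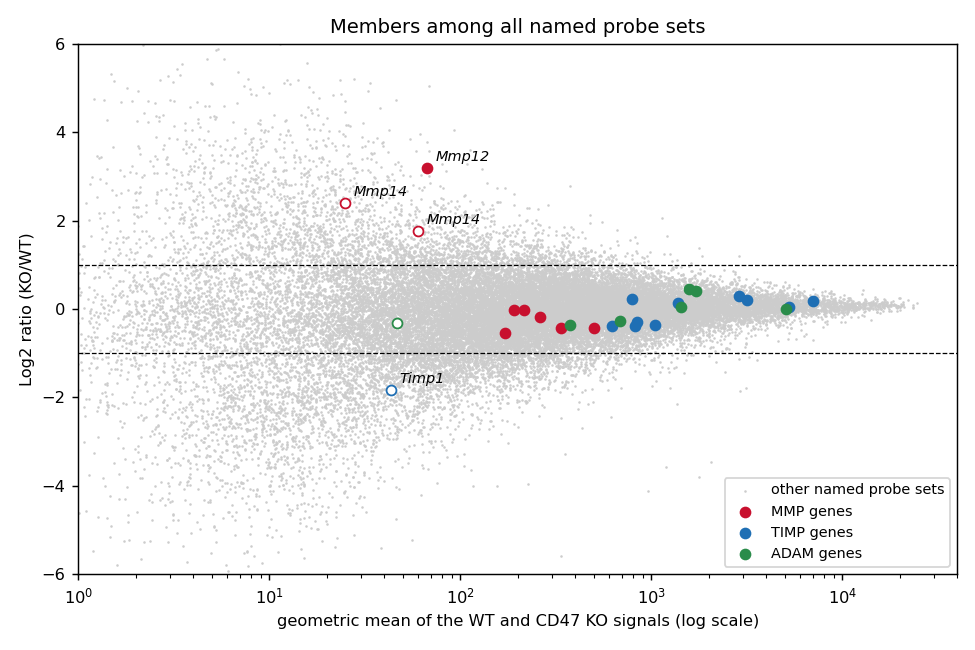
Log2 ratio (KO/WT) of each member probe set against its brightness, the geometric mean of both signals (log scale), over the other named probe sets in grey, of which 193 lie outside the axes, with the 2-fold limits marked. The grey cloud narrows from left to right, *Mmp12* lies at 3.20 in its wide part, and the probe sets of *Timp2* lie at 0.05 to 0.30 in its narrow part.

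*Mmp12* encodes macrophage elastase, an enzyme of activated macrophages that cuts elastin. It was read by 1 probe set, at 22.0 in WT and 202 in CD47 KO, a Log2 ratio of 3.20, which is 9.17-fold. The WT signal was at percentile 16.3 of its array and the CD47 KO signal at percentile 56.4. The probe set was thus below the median in WT and passed the criterion through CD47 KO alone. Its being counted and its being higher in CD47 KO are therefore not independent. Of the 1000 named probe sets nearest in brightness, 11.9% were past 2-fold higher and 0.4% had a higher Log2 ratio than *Mmp12*, and their SD was 1.09. The size of the ratio rested on a dim WT signal: it was 1.87 with the 25th percentile of each array added to its signals.

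Markers of CD11c+ activated microglia were also higher in CD47 KO. Of 9 listed genes, 8 have a named probe set and all 8 were expressed. Of these, 7 were higher and 6 past 2-fold, where the background was 3.56% of genes. The median Log2 ratio of the 8 was 1.68. The list was chosen with earlier results of these arrays known, so the count is a description and no separate support. *Itgax* (76.6 and 251), *Gpnmb* (24.8 and 167) and *Ch25h* (60.2 and 217), which encode CD11c, a membrane glycoprotein and a cholesterol hydroxylase, are among the 6. Like *Mmp12*, they passed the criterion through CD47 KO alone, so being counted and being higher are not independent for them. With the median required on both arrays, the median of the list was 1.29. Their summed signal was 4701 in WT and 8263 in CD47 KO, and single genes ran from 24.8 to 2625 in WT and from 167 to 2273 in CD47 KO. The brightest were *Lgals3* (2625 and 2273, Log2 ratio -0.21) and *Cst7*, an inhibitor of cysteine proteases (678 and 2136, 1.65). All 11 expressed microglial markers were higher, by a median of 0.25, among them *Tyrobp* (16223 and 17617) and *Csf1r* (15185 and 15949). Their median was 0.18 with quantile and with loess normalization. Markers of border-associated macrophages went the other way, with 3 of 3 expressed genes lower, a median of -0.47 and a summed signal of 2364 in WT and 1681 in CD47 KO. *Pf4* (1229 and 888) and *Ms4a7* (612 and 565) were the brightest, and *Cd163* and *Lyve1* were below the median of both arrays. The part of these cells in the *Mmp12* signal was not tested.

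*Mmp12* lies in a cluster of 10 Mmp genes, in the order *Mmp13*, *Mmp12*, *Mmp1b*, *Mmp3*, *Mmp1a*, *Mmp10*, *Mmp8*, *Mmp27*, *Mmp20*, *Mmp7*. Besides *Mmp12*, *Mmp8* was the only expressed gene of the 9 with a named probe set, and *Mmp27* is not analysed here. The nearest neighbours of *Mmp12* were *Mmp13* (37.9 in WT and 22.8 in CD47 KO) and *Mmp1b* (3.34 and 9.24). *Mmp3* had signals of 8.27 and 11.6 and *Mmp1a* of 4.38 and 6.72. Both arrays thus gave little signal around *Mmp12*. *Mmp10* had 28.3 and 0.934, *Mmp20* 21.7 and 1.09 and *Mmp7* 21.6 and 18.7. Signals in this range are not ordered here, since all 7 genes lay below the median of both arrays.

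**Figure D3:**
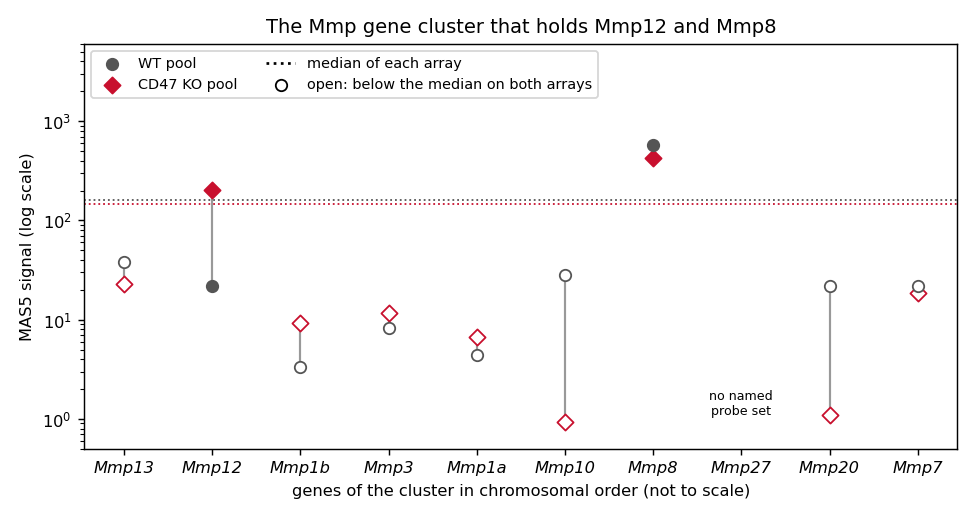
MAS5 signal (log scale) of the genes of the Mmp cluster in chromosomal order, for WT (grey circles) and CD47 KO (red diamonds), with open symbols for genes below the median of both arrays. *Mmp8* is above both medians in both pools (578 and 428), *Mmp12* crosses them between WT and CD47 KO, and the others lie below.

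*Mmp8*, the neutrophil collagenase, had a signal of 578 in WT and 428 in CD47 KO on its single probe set, a Log2 ratio of -0.43 beside a local SD of 0.48. *Mmp9*, a gelatinase stored in neutrophil granules and made by other activated cells, had 389 in WT and 289 in CD47 KO on the brighter probe set (-0.43, local SD 0.62). Its dimmer probe set had 279 and 245 (-0.19, local SD 0.67). The 3 probe sets of these enzymes were lower in CD47 KO and each by less than the scatter of probe sets of like brightness.

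Of the neutrophil markers, 6 of 8 expressed genes were lower, with a median of -0.25 and a summed signal of 79801 in WT and 75363 in CD47 KO. The brightest, *S100a9* (22757 and 24191) and *S100a8* (19600 and 21931), were slightly higher, at 0.09 and 0.16. The 6 lower ran from -1.05 (*Elane*, 1575 and 762) to -0.16 (*Camp*, 13634 and 12226), with *Mpo* at -0.87 and *Lcn2* at -0.61. All 4 expressed monocyte markers were lower, with a median of -0.29 and sums of 21281 and 17448, and *Chil3* (11461 and 9364) and *Plac8* (9092 and 7530) were the brightest. The part of neutrophils and monocytes in the *Mmp8* and *Mmp9* signals was not tested.

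*Mmp2*, the other gelatinase, is activated at the cell surface by the membrane-type enzyme that *Mmp14* encodes, with *Timp2* as a linker. Its probe sets had 216 in WT and 214 in CD47 KO (-0.02) and 194 and 190 (-0.03). Both probe sets thus differed little between the pools, beside a local SD of 0.69 for the first. *Mmp14* had 207 in WT and 142 in CD47 KO on the expressed probe set (-0.54, local SD 0.74), which reached the median in WT alone. Its other probe sets, below the median of both arrays, went the other way: 32.6 and 110 (1.76) on one, 10.8 and 57.1 (2.41) on the other. The probe sets of *Mmp14* disagreed in sign, and the direction of the gene is not settled by these arrays.

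*Timp2*, the inhibitor that takes part in that activation, had the most probe sets of the group. The brightest had 6567 in WT and 7398 in CD47 KO (0.17), and the next 5168 and 5366 (0.05). The following pair had 2948 and 3384 (0.20) and 2588 and 3190 (0.30). The remaining pair had 1317 and 1449 (0.14) and 729 and 858 (0.24). All 6 were higher in CD47 KO, with a mean Log2 ratio of 0.18 and an SD of 0.08 over probe sets. Local SDs ran from 0.16 to 0.43, and the brightest (0.17 beside 0.16) and the one at 0.30 (beside 0.28) lay just beyond theirs, the other 4 within.

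*Timp3*, which binds the matrix and inhibits *Adam17* among others, was lower on every probe set. The signals were 1184 in WT and 920 in CD47 KO (-0.36) on the brightest. They were 927 and 762 (-0.28), 940 and 724 (-0.38) and 708 and 544 (-0.38) on the others. The mean was -0.35 with an SD of 0.05 over 4 probe sets, and each Log2 ratio was smaller than its local SD (0.41 to 0.48). The 4 probe sets were all designed from 1 source sequence, and those of *Timp2* that have a record came from 2, so probe sets of a gene share target sequence as well as the pool. Their small spread is that of repeated reading of the same 2 samples and not of animals.

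*Timp1*, an inhibitor that glia make on injury, was at 81.8 in WT and 22.8 in CD47 KO. Both signals were below the medians, and its Log2 ratio of -1.84 lay beside a local SD of 1.22, with 24.0% of the near probe sets past 2-fold lower. *Timp1*, *Timp3* and *Timp4* each lie within a synapsin gene in RefSeq, *Syn1*, *Syn3* and *Syn2*, which neurons use at synapses. *Syn1* had 4581 in WT and 4151 in CD47 KO (-0.14). *Syn3* had 507 and 405 (-0.32) and 266 and 166 (-0.69) on its expressed probe sets and 97.6 and 146 on another one, below the median of each array. The host of *Timp3* was thus lower on both expressed probe sets, as *Timp3* was. *Syn2* was lower on all of its probe sets, at -0.10, -0.08, -0.26 and -0.34 on the 4 brightest, at 190 and 2.43 (-6.29) on the last expressed one and at 92.8 and 43.1 on one below the medians. *Timp4*, within it, had 1432 and 1604 (0.16) on its brightest probe set and -0.39 on its other expressed one, so host and nested gene differed in sign on the brightest. Whether probe sets of nested genes read each other's RNA was not tested.

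*Timp3* is also made by fibroblasts and mural cells of vessels. Of 9 fibroblast and meningeal markers, all expressed, 8 were lower, with a median of -0.89 and summed signals of 7053 in WT and 4557 in CD47 KO. *Igf2* (2016 and 1405) and *Col1a2* (1519 and 702) were the brightest. Of 10 pericyte and smooth muscle markers 7 were lower, with a median of -0.51 and sums of 14068 and 10198. *Rgs5* (4097 and 2676) and *Acta2* (4004 and 2002) led. The 3 higher were *Abcc9* (249 and 558, 1.17), *Kcnj8* (0.33) and *Vtn* (0.18), and *Abcc9* had -0.06 on its other expressed probe set. Choroid plexus markers had 4 of 6 lower, a median of -0.48 and sums of 31678 and 29998, with *Ttr* (23088 and 23613) and *Kcnj13* (2947 and 2241) the brightest. The part of these cells in the *Timp3* signal was not tested.

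*Adam10*, the main sheddase of Notch and of TREM2, had 5052 in WT and 5068 in CD47 KO on its brightest probe set (0.00, local SD 0.19). The second had 1343 and 1833 (0.45, local SD 0.35) and the next 1404 and 1440 (0.04, local SD 0.35). The last, below the medians, had 52.1 and 41.6 (-0.32). Only the second lay beyond its local SD, and over the 3 expressed probe sets the mean was 0.16 with an SD of 0.25.

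*Adam17*, the TNF-converting enzyme, had 1480 in WT and 1973 in CD47 KO on its brightest probe set (0.42, local SD 0.34). The others were lower in CD47 KO, at 754 and 624 (-0.27, local SD 0.44) and 422 and 329 (-0.36, local SD 0.59). The mean was -0.07 with an SD of 0.42, so the sign depends on which probe set stands for the gene, although all 3 were designed from 1 source sequence. *Iah1*, which overlaps *Adam17* in RefSeq, had 1723 and 1923 (0.16) and 1289 and 1240 (-0.06) on its expressed probe sets.

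The genes around these families were then read from 8 lists. Of their genes, 68 were expressed, 44 higher and 24 lower in CD47 KO with a median Log2 ratio of 0.21. Of all expressed genes 50.3% were higher. Past 2-fold were 4 higher (5.88%) and 6 lower (8.82%), beside the backgrounds of 3.56% and 5.46% above. Of the 4 higher, *Mmp23*, *Adamts18* and *Tnf* reached the median in CD47 KO alone. *Adam12*, among the 6 lower, reached it in WT alone.

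**Figure D4:**
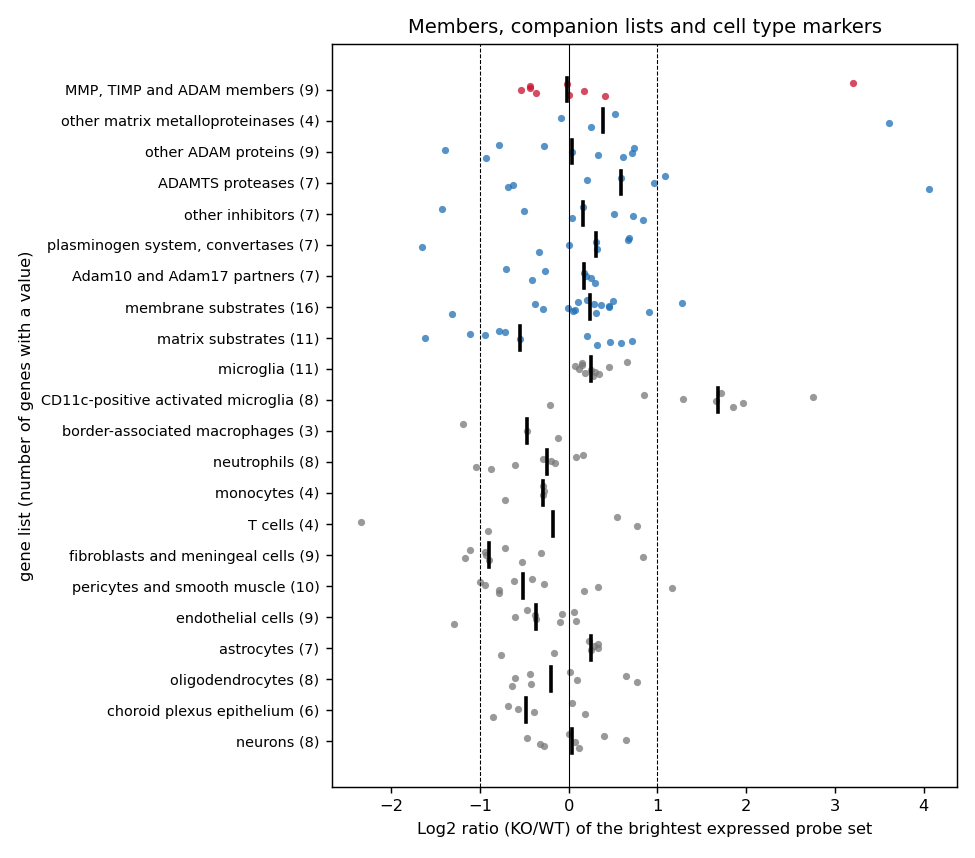
Log2 ratio (KO/WT) of every expressed gene of the member group, the 8 companion lists and the marker lists, 1 point per gene, with the median of each list as a bar and the 2-fold limits marked. Matrix substrates (-0.54) and fibroblast markers (-0.89) have medians below 0, and CD11c+ microglial markers (1.68) a median above it.

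Among the other proteases of these families, 64 genes were listed and 52 have a named probe set. Genes without a named probe set could not be read. Of the 52, 20 were expressed, with a median of 0.29 and 13 higher. Other MMPs had 4 expressed genes of 13 with a named probe set (18 listed), 3 of them higher, and a median of 0.39. *Mmp23* had 32.1 in WT and 392 in CD47 KO (3.61), but its other probe set, below the medians, had 142 and 40.4 (-1.82). *Mmp16*, a membrane-type enzyme, had 187 and 269 (0.52) on its brightest probe set, but its 3 expressed ones reached down to -0.69, with a mean of -0.21. *Mmp24*, another of this type, had 887 and 1060 (0.26) and 0.60 on the other expressed one. As for *Mmp12*, the high ratio of *Mmp23* came with a WT signal below the median.

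Other ADAMs had 9 expressed of 24 with a named probe set (27 listed), 5 higher and 4 lower, with a median of 0.04. The 3 with the largest absolute Log2 ratio were all lower: *Adam12* (226 and 86.1, -1.39), *Adam33* (176 and 92.6, -0.93) and *Adam4* (263 and 153, -0.78). *Adam12* and *Adam33* reached the median in WT alone. The second probe set of *Adam12*, below the medians, was higher (26.6 and 101). ADAMTS proteases, which cut proteoglycans, had 7 expressed of 15 with a named probe set (19 listed), 5 higher, and a median of 0.59. *Adamts1* had 655 in WT and 1389 in CD47 KO (1.08, local SD 0.42), where 0.6% of the near probe sets were past 2-fold higher. *Adamts18* had 10.4 and 173 (4.06), with 13.5 and 98.7 (2.87) and 18.2 and 11.1 (-0.72) on probe sets below the medians. *Adamts5*, an aggrecanase, had 109 and 212 (0.96). *Adamts1* was the one of these that was above the medians on both arrays and past 2-fold.

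Of other inhibitors of metalloproteinases and plasminogen activators, 11 were listed and 9 have a named probe set. Expressed were 7, with 5 higher and 2 lower, and a median of 0.16. *Reck*, a membrane-anchored inhibitor of several MMPs, was lower, with 446 in WT and 166 in CD47 KO (-1.43). *Spock3* had 161 and 287 (0.83) and *Spock1*, another proteoglycan, 2234 and 3688 (0.72), with -0.05 on its other expressed probe set. The plasminogen system and proprotein convertases, which activate precursors of these enzymes, had 7 of 8 expressed, 5 higher, and a median of 0.31. *Pcsk5* had 519 and 166 (-1.65) on the brighter probe set and 143 and 150 (0.07) on the other expressed one. *Plat*, tissue plasminogen activator, had 203 and 326 (0.68), and *Plau*, urokinase, 1164 and 1844 (0.66) on the brighter probe set. The other expressed probe set of *Plau* was lower (-0.28).

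Partners of *Adam10* and *Adam17* were, besides *Frmd8*, iRhoms and tetraspanins that carry or guide the enzymes. The list had 7 of 9 expressed, 4 higher and 3 lower, a median of 0.17 and none past 2-fold. *Rhbdf1* had 287 in WT and 177 in CD47 KO (-0.70), *Tspan17* 382 and 287 (-0.41) and *Tspan33* 2812 and 3445 (0.29). The 3 expressed probe sets of *Tspan33* reached down to -0.68, with a mean of -0.04. Membrane substrates of both sheddases had 16 expressed of 19 with a named probe set (21 listed), 12 higher and 4 lower, with a median of 0.24. *Tnf*, cut by *Adam17*, had 150 and 365 (1.28, local SD 0.67). Its WT signal was below the median, so *Tnf* was counted through CD47 KO alone. *Nlgn1*, a synaptic adhesion protein, had 536 and 215 (-1.31) and 362 and 227 (-0.67) on its expressed probe sets. *Cdh2*, N-cadherin, had 731 and 1365 (0.90) on one probe set and 0.09 on the other. *Csf1r* and *Trem2* in this list are also microglial markers, and 11 of 11 of those were higher.

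Matrix substrates of the metalloproteinases had 11 of 13 expressed, 5 higher and 6 lower, and a median of -0.54. *Col4a2*, of basement membrane, had 963 in WT and 313 in CD47 KO (-1.62). *Col1a2* had 1519 and 702 (-1.11) and 273 and 88.5 (-1.62), and *Col3a1* 244 and 127 (-0.95). The 5 higher were *Col4a1* (1239 and 1428, 0.21), *Lamb1* (0.72), *Ncan* (0.59), *Bcan* (0.47) and *Vcan* (0.32). Among expressed probe sets, *Col4a1* and *Lamb1* also reached down to -0.75 and -0.62, and *Vcan* up to 1.57. *Col1a1*, *Col1a2* and *Col3a1* are fibroblast markers as well, and the summed signals of those markers are given beside *Timp3* above. The part of fibroblasts in the matrix values was not tested.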

How the data were processed

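RNA of brain mononuclear cells was measured on 1 array per genotype. The authors scaled each array and deposited MAS5 signals. No software version was given in the sources. Both arrays had a trimmed mean of 500.002 (2% cut from each end). Of 45101 probe sets, 34945 have exactly 1 gene symbol in the platform annotation, 932 several and 9160 none here. Probe sets with several or none and the 64 controls were left out of gene counts.

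Log2 ratios (KO/WT) were taken from the deposited signals without offset, with a threshold at each array's median and a limit of 2-fold. Groups came from the genotype in the labels. With 1 array per genotype no test was made, and the number of arrays limits the precision. The members and lists were chosen with earlier results of these data known. Genes were named as follows: all members, *Cd47*, the genes of the Mmp cluster, the 2 brightest of each marker list, and of each companion list the genes past 2-fold or, where fewer than 3, the 3 with the largest absolute Log2 ratio. The sex-linked genes, the synapsins, *Iah1*, *Timp4*, *Itgax*, *Gpnmb*, *Ch25h*, *Cd3e*, *Cd8a*, *Cd163*, *Lyve1* and the genes named for being in 2 lists were added after their values were seen. So were *Col4a1*, *Lamb1*, *Ncan*, *Bcan*, *Vcan*, *Elane*, *Mpo*, *Lcn2*, *Camp*, *Abcc9*, *Kcnj8*, *Vtn* and *Frmd8*. Scatter was the SD over the 1000 named probe sets nearest in mean brightness. The calculation was tested on simulated data. Log2 ratios of the members, list medians and counts of member probe sets past 2-fold were recomputed under up to 10 alternatives, fewer where one gives no value. Summed signals and counts within lists were not. Python 3.11.15, pandas 2.3.3, numpy 2.4.6 and statsmodels 0.14.6 (loess fraction 0.4) were used. Upstream sequences are from RefSeq (GRCm38.p6).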

Additional observations from a re-analysis of the deposited data

How the results depend on the processing

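A change of threshold leaves the Log2 ratio of a gene as it is where the same probe set stands for it, so the signs bear mainly on the normalizations, the treatment of low signals and the mean over probe sets. Under those, the sign changed for *Adam10* (-0.06 to 0.16), *Mmp2* (-0.06 to 0.08) and *Adam17*, at 0.39 to 0.42 but -0.07 as the mean over its probe sets. It did not for the other 6 expressed genes, although the dim probe sets of *Mmp14*, which enter none of these settings, had the other sign. The Log2 ratio of *Mmp12* was 1.87 with the 25th percentile of each array added to its signals and 2.23 with low signals raised to that percentile. It had no value with the threshold at the 75th percentile or with the median required on both arrays, and lay between 1.87 and 3.42 elsewhere. The median over the genes was -0.19 without a threshold. Member probe sets past 2-fold higher numbered 3 without a threshold, 0 with the 75th percentile and 0 with the median on both arrays, and 1 was past 2-fold lower without a threshold. These settings differ in which dim probe sets are counted or in how low signals are read. The median of the other MMPs was -0.09 without a threshold and without probe sets that can read several transcripts, and that of the matrix substrates was -0.17 at the 75th percentile and with the median on both arrays. Over all settings the medians of other lists reached from -0.27 to 0.25 (partners of the sheddases), -0.07 to 0.47 (other ADAMs), 0.40 to 1.08 (ADAMTS proteases), 0.07 to 0.24 (membrane substrates), 1.27 to 1.75 (CD11c+ microglia), -0.90 to -0.62 (fibroblasts), -0.91 to 0.54 (T cells), -0.43 to 0.02 (oligodendrocytes) and -0.04 to 0.06 (neurons). That of the microglial markers ran from 0.18 to 0.25, and that of the astrocyte markers from 0.14 to 0.25. No paired analysis was possible because each genotype has 1 array. Depth here is brightness: dim probe sets, *Mmp12*, *Mmp14* and *Timp1* among them, carry the widest scatter, and nothing measures the spread between animals.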

Other observations

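The remaining cell type markers that the preparation could hold gave these values. Astrocyte markers had 7 of 9 expressed, 5 higher and 2 lower, with a median Log2 ratio of 0.25, and *Slc1a2* (8851 in WT and 10762 in CD47 KO) and *Gja1* (4795 and 5715) were the brightest. Of 9 oligodendrocyte markers, 8 have a named probe set and all 8 were expressed, 4 higher and 4 lower, with a median of -0.20. They were led by *Cnp* (6718 and 7170) and *Mbp* (4795 and 4860). Of 10 endothelial markers, 9 have a named probe set and all 9 were expressed, 7 of them lower, with a median of -0.37. *Slc2a1* (7576 and 7060) and *Slco1a4* (2358 and 2495) were the brightest. Neuronal markers had 8 of 8 expressed, 5 higher and 3 lower, with a median of 0.04, led by *Snap25* (17563 and 17607) and *Nefl* (5342 and 5623). T cell markers had 4 of 5 expressed, 2 higher and 2 lower, with a median of -0.18, led by *Cd3d* (935 and 1363) and *Cd3g* (668 and 1138). *Cd3e* of the same receptor complex was lower (326 and 64.3, -2.34), as was *Cd8a* (942 and 503, -0.91) on its brighter probe set.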
